A study of Mus musculus with 13 samples.

Results

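The response of mouse prostate progenitor/stem cells to 1,25-dihydroxyvitamin D3 (1,25D) was compared between 6 h and 48 h of treatment on 13 arrays, which are all 13 arrays of the series. Cultures received 100 nM 1,25D, written 1,25(OH)2D3 in the labels, or ethanol at 0.1% as vehicle. The arrays fell by their titles into vehicle for 6 h (3 arrays), 1,25D for 6 h (3 arrays), vehicle for 48 h (3 arrays) and 1,25D for 48 h (4 arrays). All 4 groups held cultured wild-type cells of 1 mouse background, given as B1/6; 127/SVEV, taken from 10 wk old animals and used at passage 22. Medium was renewed daily during the 48 h treatment. Whether the replicates came from separate cultures is not stated, so p-values measure the spread between these arrays, which may be technical.

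At each time the response is the mean log2 signal with 1,25D minus the mean with vehicle. The difference is the response at 48 h minus the response at 6 h, and it equals the change over time in the 1,25D arm minus that in the vehicle arm. A value of 1 is a doubling on the linear scale. The responses at 6 h and at 48 h share no arrays. A gene was called where its adjusted p was below 0.05, after Benjamini-Hochberg adjustment over 45037 probe sets, and 1 probe set stood for each of 18193 genes.

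1,25D is the hormonal form of vitamin D. It binds the vitamin D receptor, Vdr, which pairs with a retinoid X receptor on DNA and changes the transcription of nearby genes within hours. Targets include Cyp24a1, the enzyme that degrades the hormone. A response seen only at a late time can also pass through proteins made in the meantime, such as transcription factors, cytokines or enzymes. In epithelial tissues the hormone is known for slowing growth and for promoting differentiation, including formation of the cornified envelope in skin.

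The labelled epithelial identity was matched by high signals of epithelial keratins. Krt5 and Krt14, keratins of basal cells, and Krt8 and Krt18, keratins of luminal cells, each lay at or above the 99th percentile of all genes by mean signal, and Trp63, the basal transcription factor p63, at the 77.7th. Defining markers of other cell types lay below the median gene. The macrophage genes Csf1r and Cd68 came closest, at the 49.7th and 48.4th percentiles, followed by stromal Dcn at the 34.5th, neuroendocrine Syp at the 33.6th and endothelial Kdr at the 33.2nd. Lower ones were among the same types: Col1a1 lay at the 14.9th percentile, Ptprc at the 8.94th, Pecam1 at the 21.7th and Chga at the 18.0th. In such RNA from whole cultures, fewer cells of a type and less RNA per cell cannot be told apart. On 2 arrays, vehicle 6 h replicate 1 and 1,25D 48 h replicate 4, the spread of signals was narrower than elsewhere, with interquartile ranges of 3.03 and 2.95 against 3.27 to 3.46. Both arrays enter the difference with a plus sign, and their part in the results is given below by leaving them out.

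At 6 h, 1,25D changed 155 genes (0.852% of those tested), of which 125 (0.687%) were higher and 30 (0.165%) lower than in vehicle. At 48 h it changed 434 genes (2.39%), 261 (1.43%) higher and 173 (0.951%) lower. The difference between both responses was called for 115 genes (0.632%), with 63 (0.346%) above 0 and 52 (0.286%) below 0. Without the 2 arrays that stand apart, 248 genes were called at 6 h and 199 for the difference, and 105 of the 115 were called again. Leaving out 1 array at a time gave 66 to 130 genes, the lowest count without 1,25D 6 h replicate 1, and 61 of the 115 were called in all 13 of these fits.

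Crossing the calls placed each gene in a class. Responses called at both times in the same direction are termed sustained and held 59 genes, 50 of them up and 9 down. Transient responses, called at 6 h, not called at 48 h and with a called difference, held 24 genes (17 up, 7 down). Late-only responses, called at 48 h, not called at 6 h and with a called difference, held 79 genes (47 up, 32 down). The largest share of called genes could not be placed: 71 genes called at 6 h and 295 called at 48 h were not called at the other time, yet their difference was not called either. The 59 sustained genes were 38.1% of the calls at 6 h and 13.6% of the calls at 48 h. Without the 2 arrays that stand apart, 55 of the 59 sustained genes, 20 of the 24 transient genes and 69 of the 79 late-only genes kept their class, and in all 13 fits without 1 array 34, 11 and 39 did.

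Genes called at one time mostly leaned the same way at the other. Of the 125 genes higher at 6 h, 112 (89.6%) had a response above 0 at 48 h, against 49.2% of all genes, and their median response was 1.11 at 6 h and 0.51 at 48 h on the log2 scale. Of the 261 genes higher at 48 h, 211 (80.8%) were above 0 at 6 h, against 45.2% of all genes, with a median of 0.27 at 6 h and 0.97 at 48 h. The 173 genes lower at 48 h had a median of -0.12 at 6 h and of -0.82 at 48 h. Each set was picked by its response at the time of the call, which enlarges its median at that time. A smaller median at the other time therefore does not by itself show a change of the response.

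**Figure D1:**
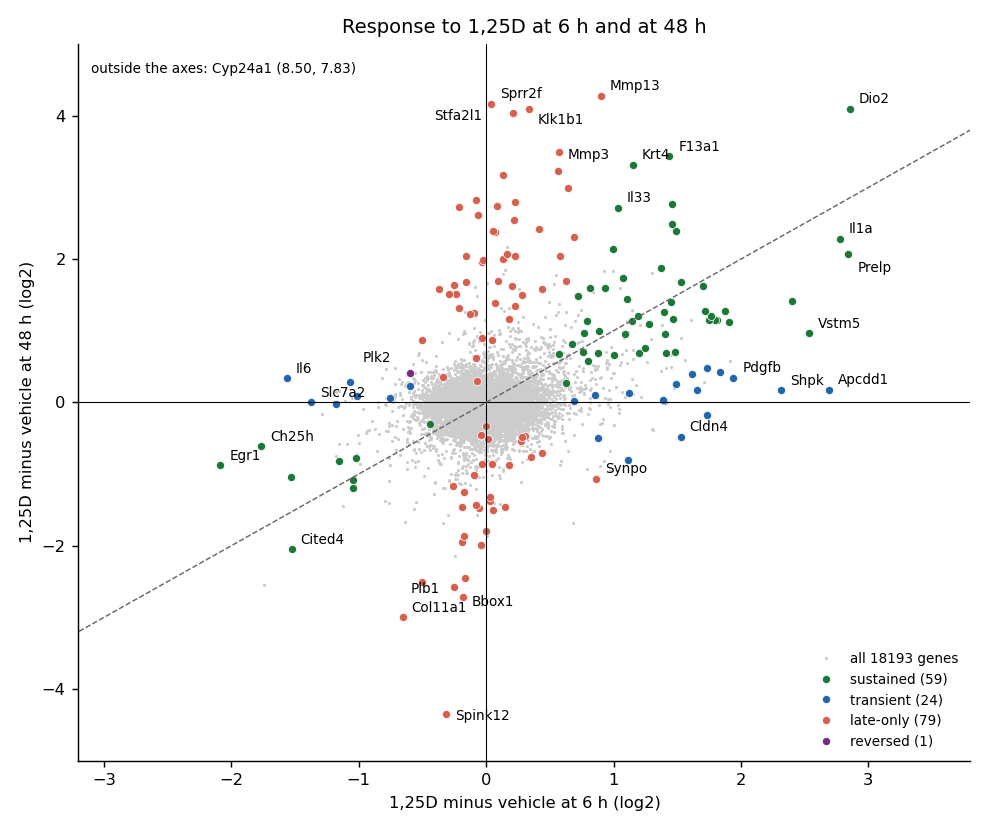
Response to 1,25D at 6 h (horizontal axis) and at 48 h (vertical axis), each as 1,25D minus vehicle on the log2 scale, for all 18193 genes (grey) and for genes of each class (colours); the dashed line marks equal responses. Late-only genes lie along the vertical axis, from Spink12 at -4.35 to Mmp13 at 4.28, transient genes lie along the horizontal axis, and Cyp24a1 lies outside the axes at 8.50 and 7.83.

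Cyp24a1, the hormone's own degrading enzyme, gave the largest response at both times. Its signals were 4.78, 4.41 and 4.40 with vehicle and 13.05, 13.21 and 12.81 with 1,25D at 6 h, and 4.65, 4.92 and 4.10 with vehicle and 12.18, 12.56, 12.39 and 12.43 with 1,25D at 48 h. The 1,25D arrays stood far above the vehicle arrays at both times, with no overlap, which held for 10.2% of all genes at 6 h and 12.6% at 48 h in either direction. The response was 8.50 (SE 0.20, adjusted p = 3.3e-11) at 6 h and 7.83 (SE 0.18, adjusted p = 4e-11) at 48 h, and the difference of -0.66 was not called (adjusted p = 0.756, 95% interval -1.24 to -0.09). Vdr itself did not pass the test at either time, with responses of -0.05 at 6 h and -0.11 at 48 h.

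Il1a, an inflammatory cytokine of epithelia, was raised at both times on a vehicle level that moved. Its signals were 6.16, 6.25 and 6.31 with vehicle and 8.98, 8.91 and 9.17 with 1,25D at 6 h, and 7.30, 7.52 and 7.43 with vehicle and 9.65, 9.65, 9.79 and 9.71 with 1,25D at 48 h. Every 1,25D array lay above every vehicle array of the same time, and both arms were higher at 48 h than at 6 h. The response was 2.78 (SE 0.12) at 6 h and 2.28 (SE 0.11) at 48 h, and the difference of -0.49 was not called (adjusted p = 0.518). Prelp, a proteoglycan of the extracellular matrix, had the same form, with responses of 2.84 and 2.07 while its vehicle level rose by 3.11 between the times. The other Prelp probe set gave a difference of 1.03, against -0.77 here, and neither was called. Cbs, an enzyme of cysteine synthesis, responded by 1.49 and 2.39, the kinase Grk5 by 1.53 and 1.69, and Procr, the protein C receptor, by 1.07 and 1.74.

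In all, 50 of the 59 sustained genes had no called difference (42 up, 8 down). For 30 of these 50 the 95% interval of the difference lay within 2-fold in either direction, so a change in the size of the response beyond 2-fold lay outside it, and for the other 20 genes it did not. The response was smaller at 48 h in 33 of the 50. Among those held down, Egr1, an immediate early transcription factor, came closest to a called difference. Its signals were 9.04, 9.02 and 9.57 with vehicle and 7.13, 7.48 and 6.76 with 1,25D at 6 h, and 10.64, 10.70 and 10.75 with vehicle and 9.85, 9.93, 9.77 and 9.73 with 1,25D at 48 h. It was lower with 1,25D at both times, with responses of -2.09 and then -0.88, and the difference of 1.21 had an adjusted p of 0.0571. The responses at 6 h and 48 h were -1.53 and -2.05 for Cited4, a transcriptional co-activator, and -1.04 and -1.20 for Ptger4, a prostaglandin E2 receptor. They were -1.04 and -1.08 for the protease Adamts1, and -1.53 and -1.04 for Tlr2, a receptor for bacterial lipoproteins.

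The response grew between 6 h and 48 h in 7 sustained genes, all of them raised: Krt4, F13a1, Il33, Csta1, Dio2, Jam2 and Ccn2. Krt4, a keratin of stratified epithelia, showed the largest growth, with signals of 5.55, 5.92 and 5.79 with vehicle and 7.02, 6.73 and 6.96 with 1,25D at 6 h, and 6.80, 6.58 and 6.96 with vehicle and 10.15, 9.84, 10.52 and 9.87 with 1,25D at 48 h. The lowest 1,25D array at 48 h stood well above all other arrays. The response went from 1.15 to 3.32, a difference of 2.16 (SE 0.26, adjusted p = 0.00121). F13a1, the transglutaminase subunit of coagulation factor XIII, went from 1.44 to 3.44 with a flat vehicle level, and its signals were 4.67, 4.82 and 4.91 with vehicle and 6.23, 6.49 and 6.01 with 1,25D at 6 h, and 4.82, 4.42 and 4.76 with vehicle and 8.33, 8.39, 7.88 and 7.81 with 1,25D at 48 h.

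Il33, an alarmin of the interleukin-1 family, grew with both arms rising over time. Its signals were 5.38, 5.43 and 5.36 with vehicle and 6.12, 6.56 and 6.60 with 1,25D at 6 h, and 8.65, 8.44 and 8.64 with vehicle and 11.34, 11.32, 11.31 and 11.19 with 1,25D at 48 h. The vehicle arm rose by 3.18 and the 1,25D arm by 4.86, so the response went from 1.03 to 2.72, a difference of 1.68 (SE 0.19, adjusted p = 0.00078). Dio2, the enzyme that activates thyroid hormone, went from 2.85 to 4.10 (difference 1.24, adjusted p = 0.0382). Csta1, a stefin that inhibits cysteine proteases, went from 1.46 to 2.77, Jam2, a junctional adhesion molecule, from 0.99 to 2.13, and Ccn2, a matricellular growth factor, from 0.81 to 1.59. Leaving out 1 array ended the call of the difference for Dio2 in 9 of the 13 fits (adjusted p up to 0.142) and for Csta1 in 11 of the 13 fits (adjusted p up to 0.144).

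The response waned but stayed called in 2 genes. Vstm5, a membrane protein with an immunoglobulin-like domain, had signals of 6.69, 7.48 and 7.20 with vehicle and 9.70, 9.60 and 9.67 with 1,25D at 6 h, and 6.53, 6.68 and 6.41 with vehicle and 7.58, 7.47, 7.65 and 7.32 with 1,25D at 48 h. The 1,25D arrays stayed above vehicle at 48 h by a smaller margin. Its response went from 2.53 to 0.97 (difference -1.57, adjusted p = 0.0118), and the call was lost without 1,25D 6 h replicate 1 (adjusted p = 0.051). Ch25h, which makes 25-hydroxycholesterol, had responses of -1.77 at 6 h and -0.61 at 48 h, while both arms rose over time. Its difference of 1.16 lost its call without 1,25D 6 h replicate 1, vehicle 48 h replicate 1 or vehicle 48 h replicate 3 (adjusted p up to 0.0681).

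Transient rises were led by Apcdd1, a membrane inhibitor of Wnt signalling. Its signals were 5.39, 5.67 and 5.55 with vehicle and 8.05, 8.46 and 8.16 with 1,25D at 6 h, and 6.25, 5.65 and 5.97 with vehicle and 6.04, 6.31, 6.07 and 6.12 with 1,25D at 48 h. The 1,25D arrays were high at 6 h and mixed with the vehicle arrays at 48 h. The response was 2.69 (SE 0.17, adjusted p = 2.97e-06) at 6 h and 0.18 (SE 0.16) at 48 h, a difference of -2.51 (SE 0.24, adjusted p = 0.000181), and the call was lost where probe sets that can match several transcripts were left out. Shpk, the kinase of sedoheptulose in sugar phosphate metabolism, had signals of 6.39, 6.67 and 6.60 with vehicle and 8.71, 8.93 and 8.96 with 1,25D at 6 h, and 6.86, 6.76 and 6.98 with vehicle and 7.18, 7.21, 7.07 and 6.68 with 1,25D at 48 h. It too was high with 1,25D at 6 h and overlapped vehicle at 48 h, with a response of 2.31 and then 0.17 (difference -2.14 (SE 0.22, adjusted p = 0.000387)). Pdgfb, a growth factor for mesenchymal cells, went from 1.94 to 0.34 (difference -1.60 (SE 0.21, adjusted p = 0.00288)). In these 3 genes the vehicle arm was not called for a change over time and the 1,25D arm fell.

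Cldn4, a claudin of tight junctions, lost its response in another way. Its signals were 9.79, 10.11 and 10.08 with vehicle and 11.35, 11.51 and 11.69 with 1,25D at 6 h, and 11.84, 11.67 and 11.80 with vehicle and 11.37, 10.94, 11.42 and 11.44 with 1,25D at 48 h. At 6 h the vehicle arrays were the lowest of all, and by 48 h they had risen above the treated cells. The response was 1.52 (SE 0.14) at 6 h and -0.48 (SE 0.13) at 48 h, a difference of -2.0 (SE 0.19, adjusted p = 0.000171). Vehicle rose over time by 1.78, whereas the 1,25D arm changed by -0.22, which was not called.

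Ccng2, a cyclin linked to growth arrest, had signals of 5.70, 6.2 and 6.63 with vehicle and 7.77, 7.97 and 7.99 with 1,25D at 6 h, and 9.11, 8.84 and 8.82 with vehicle and 8.77, 9.17, 8.66 and 8.40 with 1,25D at 48 h. Vehicle rose over time by 2.75 and the 1,25D arm by 0.84, so that the treated cells led at 6 h and overlapped vehicle at 48 h. Its difference of -1.91 (SE 0.31, adjusted p = 0.0152) lost its call when vehicle 48 h replicate 1, or either replicate 2 or 3 of 1,25D at 6 h, was left out (adjusted p up to 0.0575).

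Of the 17 transient rises, the vehicle arm alone was called for a change over time in 5, the 1,25D arm alone in 6, both in the same direction in 4 and both in opposite directions in 2. Hsph1, a heat shock protein, was the smallest of the 17, with a response of 0.69 at 6 h and 0.02 at 48 h, and its call was lost in 8 of the 13 fits (adjusted p up to 0.0844) and without the 2 arrays that stand apart.

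In all 7 transient falls the 1,25D arm rose over time, while vehicle rose in 3 and fell in 1. Il6, an inflammatory cytokine, had the largest fall at 6 h. Its signals were 7.39, 7.5 and 7.62 with vehicle and 5.88, 5.89 and 6.04 with 1,25D at 6 h, and 7.82, 8.31 and 7.87 with vehicle and 8.48, 8.20, 8.37 and 8.29 with 1,25D at 48 h. The 3 treated arrays at 6 h were the lowest of all 13, and at 48 h the treated arrays overlapped the vehicle arrays. The response was -1.56 (SE 0.15, adjusted p = 0.000116) at 6 h and 0.34 (SE 0.14) at 48 h, a difference of 1.90 (SE 0.21, adjusted p = 0.000559). Slc7a2, a transporter of cationic amino acids, had signals of 7.73, 7.96 and 8.05 with vehicle and 6.29, 6.61 and 6.72 with 1,25D at 6 h, and 8.80, 8.94 and 9.06 with vehicle and 8.89, 8.82, 9.04 and 8.98 with 1,25D at 48 h. Its response went from -1.37 to 0.00 (difference 1.38 (SE 0.20, adjusted p = 0.00594)) as both arms rose. Other probe sets of Slc7a2 gave differences of 0.14 to 0.47, none of them called.

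Timp3, an inhibitor of matrix metalloproteinases, had signals of 13.21, 13.51 and 13.26 with vehicle and 11.99, 12.35 and 12.11 with 1,25D at 6 h, and 13.39, 13.30 and 13.31 with vehicle and 13.23, 13.47, 13.26 and 13.27 with 1,25D at 48 h. Only the treated arrays at 6 h were low, and the other groups lay together. The response was -1.18 at 6 h and -0.03 at 48 h (difference 1.15 (SE 0.13, adjusted p = 0.000884)). Jag1, a Notch ligand, went from -1.07 to 0.29, Fst, the activin antagonist follistatin, from -1.01 to 0.10, Rdh10, a retinol dehydrogenase, from -0.76 to 0.07, and the transcription factor Myc from -0.60 to 0.22. The call of the difference was lost for Jag1 in 6 of the 13 fits (adjusted p up to 0.0796), for Fst in 7 of the 13 fits (adjusted p up to 0.0939), for Myc in 6 of the 13 fits (adjusted p up to 0.0844) and for Rdh10 in 2 of the 13 fits (adjusted p up to 0.0593), and for Fst also without the 2 arrays that stand apart.

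Plk2, a kinase of the p53 response, was the 1 gene called in opposite directions. Its signals were 11.27, 11.24 and 11.52 with vehicle and 10.67, 10.69 and 10.86 with 1,25D at 6 h, and 10.48, 10.55 and 10.56 with vehicle and 10.91, 11.07, 10.84 and 10.93 with 1,25D at 48 h. Treated arrays lay below vehicle at 6 h and above it at 48 h, with no overlap at either time. The response was -0.60 (SE 0.10, adjusted p = 0.00713) at 6 h and 0.41 (SE 0.09, adjusted p = 0.0406) at 48 h, and the difference was 1.01 (SE 0.13, adjusted p = 0.0026). The difference was called in all 13 fits that leave out 1 array, whereas calls at both times were not, and the gene left this class without the 2 arrays that stand apart. The other Plk2 probe set gave a difference of 0.14, not called. For Crem, a cAMP-responsive transcription factor, and Gabrp, a GABA receptor subunit, the difference was called (-1.75 and -1.32) with neither response called on its own. Crem lost its call without 1,25D 6 h replicate 3 (adjusted p = 0.0507), and Gabrp in 11 of the 13 fits (adjusted p up to 0.132) and without the 2 arrays that stand apart.

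**Figure D2:**
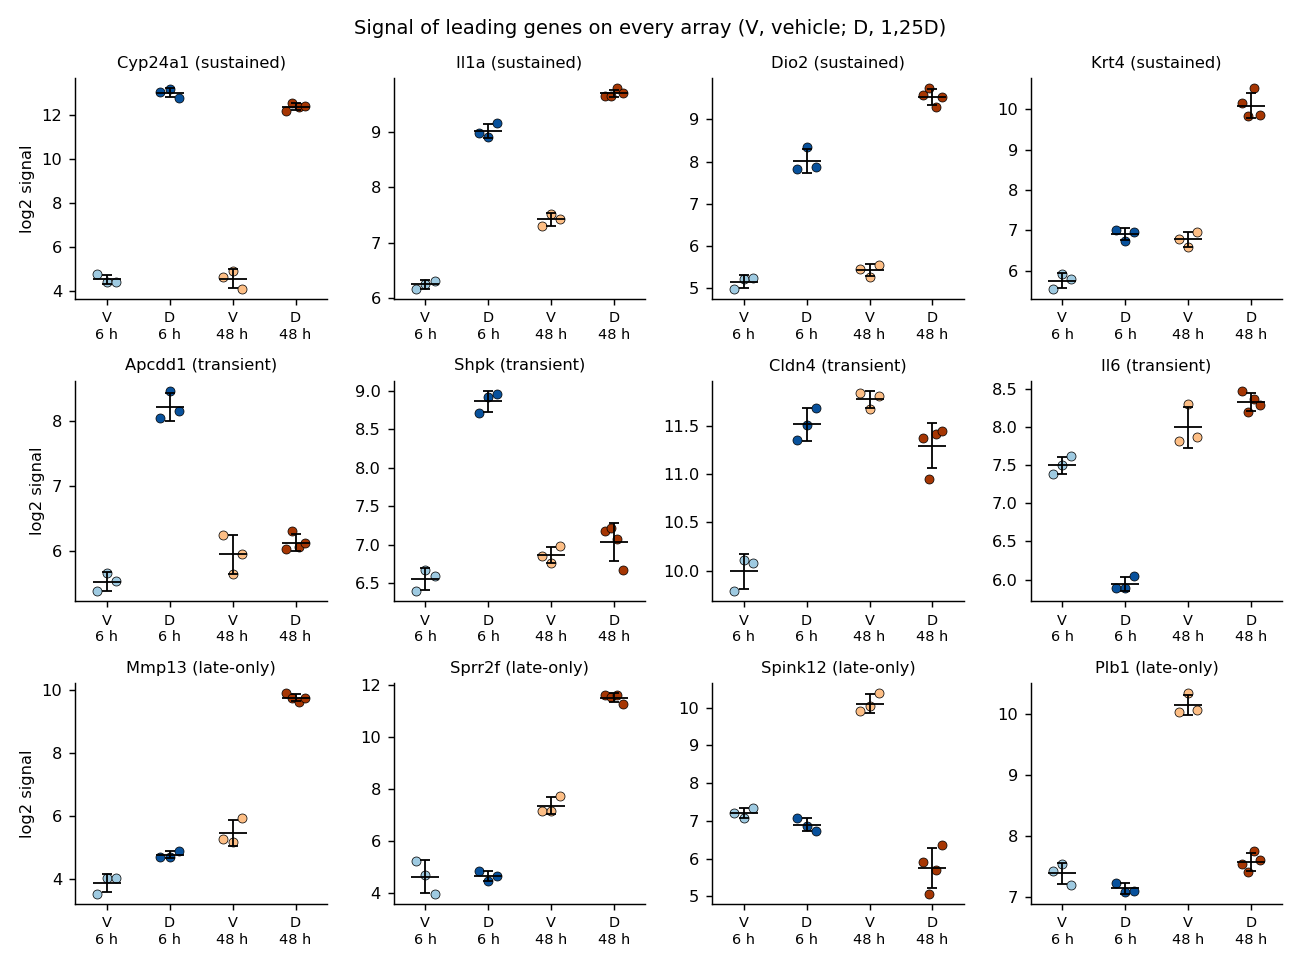
Log2 signal of 12 leading genes on each of the 13 arrays (points), with group mean and SD (bars), for vehicle (V) and 1,25D (D) at 6 h and 48 h; each panel has its own scale, which does not start at 0. Cyp24a1 and Il1a stood above vehicle at both times, Apcdd1 and Shpk at 6 h, Mmp13 and Sprr2f mainly at 48 h, and Spink12 and Plb1 were high only in vehicle at 48 h.

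Late-only rises with the largest differences were Sprr2f, Stfa2l1, Klk1b1 and Mmp13. Sprr2f, a small proline-rich protein that is cross-linked into the cornified envelope, had signals of 5.22, 4.69 and 3.97 with vehicle and 4.86, 4.48 and 4.66 with 1,25D at 6 h, and 7.16, 7.16 and 7.74 with vehicle and 11.63, 11.56, 11.62 and 11.28 with 1,25D at 48 h. At 6 h the treated and vehicle arrays overlapped, and at 48 h all 4 treated arrays lay far above vehicle, which had itself risen. The response was 0.04 (SE 0.26) at 6 h and 4.17 (SE 0.25, adjusted p = 3.59e-07) at 48 h, an 18-fold level, and the difference was 4.13 (SE 0.36, adjusted p = 0.000104).

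The list of cornified envelope and epidermal differentiation genes, which includes Sprr2f, held 38 measured members, and 7 were called for the difference, all above 0: Sprr2f, Sprr2i (2.93), Cdsn (2.65), which encodes corneodesmosin, Sprr2d (2.33), Sprr1b (2.33), Sprr1a (1.61) and S100a8 (0.83). Their responses at 6 h ran from -0.21 (Sprr2i) to 0.21 (Sprr2d), and those at 48 h from 0.88 (S100a8) to 4.17 (Sprr2f). The median difference of the list was 0.47 with 34 of 38 members above 0, against a median of 0.01 and 51.8% above 0 over all genes. At 48 h 15 of the 38 were called higher and none lower, and at 6 h 4 higher and none lower. Over all genes, 0.346% were called above 0 for the difference, 1.43% higher at 48 h and 0.687% higher at 6 h. Sprr genes are near-identical copies, so probe sets may share signal between them. Klk6, a kallikrein of the same list, had the opposite form and no called difference (1.91 at 6 h, 0.57 at 48 h). In the fits that leave out 1 array, 5 to 7 members of the list were called above 0 for the difference and 0 to 2 below 0. Leaving out 1 array ended the calls of Sprr1a in 9 of the 13 fits (adjusted p up to 0.0895) and of S100a8 in 11 of the 13 fits (adjusted p up to 0.152) and without the 2 arrays that stand apart.

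Of these 7 genes, 6 also rose over time in vehicle, Sprr2d the most, whereas Sprr1b was called in the 1,25D arm alone. Sprr2d signals were 5.46, 5.66 and 6.11 with vehicle and 5.85, 5.96 and 6.07 with 1,25D at 6 h, and 10.23, 10.27 and 10.78 with vehicle and 13.03, 12.91, 13.04 and 12.90 with 1,25D at 48 h. For Sprr2d, vehicle rose over time by 4.68 and 1,25D by 7.01, so its response appeared on top of a rise that the vehicle cells also had. Krt16 and Krt6b, keratins of activated and wounded stratified epithelium, also rose at 48 h alone, by 1.51 (SE 0.13) and 1.63 (SE 0.11), against -0.29 and 0.20 at 6 h. Krt16 signals were 11.02, 11.25 and 11.05 with vehicle and 10.95, 10.54 and 10.96 with 1,25D at 6 h, and 11.22, 11.56 and 11.68 with vehicle and 13.08, 12.87, 13.14 and 12.89 with 1,25D at 48 h. Vehicle Krt16 was not called for a change over time, whereas treated Krt16 rose by 2.18. Of 26 measured keratins, Krt16, Krt6b, Krt4 and Krt6a were called above 0 for the difference, against 0.346% of all genes. Krt18, of luminal cells, was called below 0 (-0.34), against 0.286% of all genes. Krt6a (0.37) and Krt18 lost their calls without the 2 arrays that stand apart.

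Among 33 measured protease inhibitors of epithelium, the difference was called above 0 in 4 and below 0 in 2, against 0.346% and 0.286% of all genes. Stfa2l1, a stefin, had signals of 4.22, 4.35 and 4.22 with vehicle and 4.49, 4.41 and 4.53 with 1,25D at 6 h, and 4.61, 4.55 and 4.61 with vehicle and 8.71, 8.85, 8.63 and 8.34 with 1,25D at 48 h. The 3 groups other than 1,25D at 48 h lay between 4.22 and 4.61, and all treated arrays at 48 h lay above 8.3. Its response was 0.21 (SE 0.14) at 6 h and 4.04 (SE 0.13, adjusted p = 1.12e-09) at 48 h, and its difference of 3.83 had the smallest adjusted p of all genes, adjusted p = 6.98e-07. Stfa3 (1.62), Csta1 (1.31) and Serpinb2 (2.21), the plasminogen activator inhibitor 2, were the others above 0. Serpinb2 lost its call in 5 of the 13 fits (adjusted p up to 0.0767).

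Klk1b1, Egfbp2 and Klk1b11, secreted serine proteases of the glandular kallikrein family, were among the largest late-only rises, and other kallikreins were not tested as a list. Klk1b1 had signals of 5.38, 4.44 and 4.26 with vehicle and 5.17, 4.75 and 5.15 with 1,25D at 6 h, and 4.86, 5.16 and 5.14 with vehicle and 9.36, 9.28, 9.08 and 8.85 with 1,25D at 48 h. Only the 1,25D arrays at 48 h were high. Its response went from 0.33 to 4.09, that of Egfbp2 from 0.13 to 3.18 and that of Klk1b11 from -0.06 to 2.61. These family members are close in sequence, so their probe sets may share signal. Tmprss11e, a membrane serine protease, went from 0.22 to 2.80, and Tmigd1 and Teddm3, both membrane proteins, reached 3.23 and 2.83 at 48 h.

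Of 30 measured matrix proteases and inhibitors, 4 were called for the difference, all above 0 (0.346% of all genes): the metalloproteinases Mmp13, Mmp3 and Mmp10, and the inhibitor Timp3 described above, whose value came from its fall at 6 h. Mmp13, a collagenase, had signals of 3.54, 4.05 and 4.04 with vehicle and 4.72, 4.71 and 4.90 with 1,25D at 6 h, and 5.27, 5.17 and 5.95 with vehicle and 9.88, 9.73, 9.61 and 9.74 with 1,25D at 48 h. Treated arrays lay above vehicle at both times, by a small margin at 6 h and a wide one at 48 h. The response was 0.90 (SE 0.20) at 6 h, which was not called (adjusted p = 0.0833), and 4.28 (SE 0.19, adjusted p = 2.09e-08) at 48 h, or 19.4-fold, and the difference was 3.38 (SE 0.28, adjusted p = 8.65e-05).

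Mmp3, stromelysin-1, had signals of 6.68, 6.90 and 6.85 with vehicle and 7.47, 7.06 and 7.61 with 1,25D at 6 h, and 5.19, 5.23 and 5.37 with vehicle and 8.84, 9.0, 8.61 and 8.58 with 1,25D at 48 h. Over time vehicle fell by 1.55 and 1,25D rose by 1.38, so that the arms moved apart. The response was 0.57 at 6 h and 3.49 at 48 h, a difference of 2.92 (SE 0.23, adjusted p = 6.05e-05). Mmp10, stromelysin-2, responded by 0.28 and 1.5 (difference 1.22 (SE 0.20, adjusted p = 0.0158)), with its call lost in 5 of the 13 fits (adjusted p up to 0.0594).

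The 250 bases before the RefSeq start site are shown for late-only rises picked because they held the motif TGANTCA. It is the form of site bound by AP-1 factors such as Fos and Jun proteins. Stfa2l1, Klk1b1 and Egfbp2, also among the largest late-only rises, were not among the genes with a match, for lack of the motif or of a window. The motif reads the same on both strands. Windows are from RefSeq on GRCm38.p6, 5′ to 3′ on the strand of the gene, with the motif in capitals. They lie at chr9:7272264-7272513, plus strand (Mmp13), chr9:7445572-7445821, plus strand (Mmp3), chr9:7502092-7502341, plus strand (Mmp10), chr3:92364937-92365186, plus strand (Sprr2f) and chr3:92438780-92439029, minus strand (Sprr1b).
Mmp13: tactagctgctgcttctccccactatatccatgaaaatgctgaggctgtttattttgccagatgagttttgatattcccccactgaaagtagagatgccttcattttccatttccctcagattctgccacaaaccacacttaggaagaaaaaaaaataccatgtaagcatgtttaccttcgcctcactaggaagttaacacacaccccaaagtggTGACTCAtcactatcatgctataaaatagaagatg
Mmp3: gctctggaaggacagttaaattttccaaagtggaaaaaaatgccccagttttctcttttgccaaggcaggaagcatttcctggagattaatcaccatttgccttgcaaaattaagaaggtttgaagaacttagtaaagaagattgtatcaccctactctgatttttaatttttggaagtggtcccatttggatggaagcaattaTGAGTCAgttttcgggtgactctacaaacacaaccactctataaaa
Mmp10: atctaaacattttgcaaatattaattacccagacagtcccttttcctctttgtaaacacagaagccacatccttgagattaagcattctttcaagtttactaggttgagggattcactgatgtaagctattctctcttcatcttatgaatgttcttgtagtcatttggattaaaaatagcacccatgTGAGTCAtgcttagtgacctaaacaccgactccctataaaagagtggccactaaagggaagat
Sprr2f: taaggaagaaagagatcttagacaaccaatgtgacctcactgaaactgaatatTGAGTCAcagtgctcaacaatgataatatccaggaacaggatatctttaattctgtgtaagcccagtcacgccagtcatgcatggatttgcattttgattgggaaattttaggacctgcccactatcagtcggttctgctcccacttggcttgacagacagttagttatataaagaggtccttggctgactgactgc
Sprr1b: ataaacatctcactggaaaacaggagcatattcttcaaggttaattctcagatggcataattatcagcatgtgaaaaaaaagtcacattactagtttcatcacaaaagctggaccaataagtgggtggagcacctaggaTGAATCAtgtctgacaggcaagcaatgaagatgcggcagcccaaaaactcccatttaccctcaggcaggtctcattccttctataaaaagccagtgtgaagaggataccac

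The motif nearest to the start began 35 bases before it in Mmp13, 46 in Mmp3, 63 in Mmp10, 111 in Sprr1b and 197 in Sprr2f. Of the 47 late-only rises, 32 had a window, and 13 of these (40.6%) held the motif, against 968 of 14452 measured genes (6.70%) and 2217 of all 32851 windows (6.75%). These 13 genes were not spread evenly: 3 are the Mmp genes, neighbours on chromosome 9, and 5 are the Sprr genes of chromosome 3, whose copies share sequence. The motif was found in 5 of 25 windows of late-only falls (20%), 5 of 36 of sustained rises (13.9%), 1 of 13 of transient rises (Cldn4), 1 of 3 of transient falls (Il6) and 0 of 7 of sustained falls. The motif was chosen after the late-only genes were known, and a match is a description of these letters, not of binding. On the arrays themselves Fos, which was picked after its value was seen, was sustained, with responses of 0.57 and 0.67. Other AP-1 factors are not given singly here. The list of immediate early factors is not a list of AP-1 factors, since it also holds genes such as Egr1, Myc and Ccn2. Of its 29 measured members, 2 were called higher and 3 lower at 6 h, against 0.687% and 0.165% of all genes. At 48 h 3 were called higher and 2 lower, against 1.43% and 0.951%. Any part of AP-1 factors in the late rises was not tested.

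Slc7a11, the cystine transporter, responded by -0.24 at 6 h and 1.52 at 48 h (difference 1.75 (SE 0.26, adjusted p = 0.00866)), but its probe set of largest variance gave a difference of 0.79 that was not called. The response of Gsta4, a glutathione transferase, was 0.18 and 1.17. Abcc4, an efflux transporter of the vitamin D list, had signals of 8.55, 8.99 and 9.06 with vehicle and 8.95, 9.26 and 9.07 with 1,25D at 6 h, and 6.90, 6.28 and 6.73 with vehicle and 8.72, 9.08, 8.66 and 8.25 with 1,25D at 48 h. Vehicle fell over time by 2.23 while the 1,25D arm was not called for a change, so the late response of 2.04 came with a loss in vehicle. Its call was lost when vehicle 48 h replicate 2, or either replicate 1 or 3 of 1,25D at 6 h, was left out (adjusted p up to 0.0713). Wif1, a secreted Wnt inhibitor, reached 1.96 at 48 h from -0.03 at 6 h, with its call lost without 1,25D 6 h replicate 1 (adjusted p = 0.051).

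The late-only falls had a different form, since vehicle rose over time in 26 of the 32. The 1,25D arm was called as rising in 8 of the 32, among them Plb1 and Synpo. Spink12, an inhibitor of serine proteases, gave the largest. Its signals were 7.22, 7.07 and 7.35 with vehicle and 7.08, 6.88 and 6.74 with 1,25D at 6 h, and 9.90, 10.04 and 10.38 with vehicle and 5.92, 5.07, 5.69 and 6.36 with 1,25D at 48 h. At 6 h the groups overlapped, and at 48 h all vehicle arrays were higher and all 1,25D arrays lower than any array at 6 h. The response was -0.32 (SE 0.25) at 6 h and -4.35 (SE 0.24, adjusted p = 1.79e-07) at 48 h, a difference of -4.03 (SE 0.35, adjusted p = 9.96e-05). Vehicle rose by 2.89 and the 1,25D arm fell by 1.14.

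Plb1, a phospholipase of epithelia, had signals of 7.42, 7.53 and 7.20 with vehicle and 7.23, 7.07 and 7.10 with 1,25D at 6 h, and 10.04, 10.34 and 10.06 with vehicle and 7.54, 7.4, 7.74 and 7.59 with 1,25D at 48 h. The vehicle arrays at 48 h stood apart from the other 10. Vehicle rose by 2.76 and 1,25D by 0.44, and the response went from -0.25 to -2.58 (difference -2.33 (SE 0.19, adjusted p = 9.02e-05)). Other probe sets of Plb1 gave differences of only -0.22 to -0.08, none of them called. Wfdc3, a whey acidic protein domain inhibitor, had signals of 6.4, 6.65 and 6.50 with vehicle and 6.43, 6.26 and 6.37 with 1,25D at 6 h, and 8.27, 8.76 and 8.41 with vehicle and 6.2, 5.69, 6.38 and 5.84 with 1,25D at 48 h. Vehicle alone rose, by 1.96, and the response went from -0.16 to -2.45 (difference -2.28 (SE 0.26, adjusted p = 0.000788)). The other Wfdc3 probe set gave a difference of 0.06, not called. Glycam1, a mucin-like secreted protein, went from -0.04 to -1.99, and Synpo, an actin-associated protein, went from 0.86 to -1.07. The other Synpo probe set gave a difference of 0.10, not called.

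Bbox1, the last enzyme of carnitine synthesis, had signals of 5.52, 6.15 and 6.28 with vehicle and 6.05, 5.76 and 5.58 with 1,25D at 6 h, and 9.10, 9.17 and 9.09 with vehicle and 6.94, 6.18, 7.09 and 5.42 with 1,25D at 48 h. Its treated arrays at 48 h spread widely, and the difference of -2.53 (SE 0.48, adjusted p = 0.0403) lost its call in 10 of the 13 fits (adjusted p up to 0.144). Col11a1, a fibrillar collagen chain, responded by -0.65 at 6 h and -3.0 at 48 h, and Acod1, which makes itaconate, by -0.50 and -2.51. Neither was called at 6 h, though their 1,25D arrays all lay below vehicle then. Arrays without overlap at 6 h were found in 10.2% of all genes, in either direction. The call of Col11a1 was lost in 8 of the 13 fits (adjusted p up to 0.0898) and that of Acod1 without 1,25D 6 h replicate 1 (adjusted p = 0.0506). Lif, a cytokine, and Fbp1, a gluconeogenic enzyme of the vitamin D list, had responses of -0.76 and -1.01 at 48 h, with calls of the difference lost in 12 of the 13 fits (adjusted p up to 0.152) and 9 of the 13 fits (adjusted p up to 0.116), and for Lif also without the 2 arrays that stand apart. The other Lif probe set gave a difference of 0.28, in the opposite direction and not called.

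From 6 h to 48 h, 3382 genes (18.6%) were called in vehicle, of which 1790 (9.84%) rose and 1592 (8.75%) fell, and 4265 genes (23.4%) were called with 1,25D. Both counts were above those of the hormone at either time. Among the 115 genes called for the difference, the 1,25D arm alone was called for a change over time in 37 (25 with a difference above 0, 12 below), the vehicle arm alone in 26 (4 above, 22 below), both arms in the same direction in 44 and both in opposite directions in 8. The late-only rises and falls split accordingly. Of the 47 rises, the 1,25D arm rose in 43, of which 20 were called in that arm alone, 20 rose in vehicle too and 3 fell in vehicle. Of the 32 falls, vehicle rose in 26, and in 17 it was the arm called alone. The median change over time was 0.49 in vehicle and 2.52 with 1,25D among the 47 rises, and 1.62 and 0.16 among the 32 falls. These counts describe the genes that the difference had already selected. Confluence was stated only for the start of treatment, and its part in the changes over time was not tested.

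**Figure D3:**
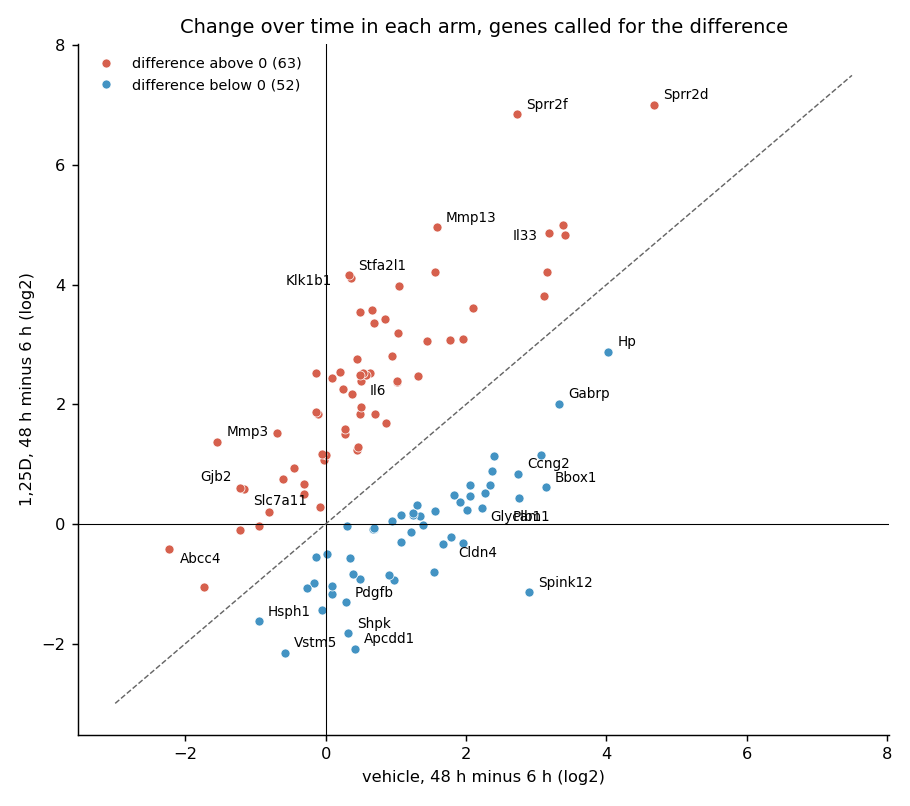
Change from 6 h to 48 h in vehicle (horizontal axis) and in 1,25D-treated cells (vertical axis), log2, for the 115 genes called for the difference; the dashed line marks equal change and so a difference of 0. Genes above the line include Sprr2f (2.73 and 6.86) and Mmp3 (-1.55 and 1.38), and those below include Spink12 (2.89 and -1.14), Plb1 (2.76 and 0.44) and Apcdd1 (0.42 and -2.09).

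The 34 gene lists held 1026 measured entries, and their counts stand against 0.632% of all genes called for the difference (0.346% above 0, 0.286% below). Of 34 measured genes on the vitamin D list, 1 was called above 0 for the difference (Abcc4) and 1 below (Fbp1). On this list 4 were called higher at 6 h and 4 at 48 h, against 0.687% and 1.43% of all genes. At 48 h 1 was called lower, against 0.951% of all genes. Among 43 NF-kB targets, cytokines and chemokines, Il6 and Saa3 (0.69) were called above 0 and Lif (-1.12) below. Saa3, an acute phase protein, rose over time by more than 3 in both arms (3.12 and 3.81), with a response of 0.35 at 48 h. The interleukin-1 family had 1 call of 19, Il33. Immediate early factors had 2 calls of 29, Ccn2 and Myc. Notch signalling had Jag1 of 29, the TGF-beta, activin and BMP list Fst of 46, and the EGF receptor family Ereg, a growth factor ligand, of 16 (0.69). Wnt signalling had 1 call in each direction of 48, Wif1 and Apcdd1, both inhibitors of the pathway. Saa3 lost its call in 4 of the 13 fits (adjusted p up to 0.0748) and Ereg in 10 of the 13 fits (adjusted p up to 0.158).

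In the list of 29 measured prostate luminal and secretory genes the difference was called below 0 in 3, Cldn4, Cldn3 (-0.77) and Krt18, and above 0 in none, against 0.286% and 0.346% of all genes, with a median of -0.12 against 0.01 over all genes. In the list of 22 measured basal cell genes it was called above 0 in 2, Lama3 (1.38), a laminin chain, and Jag1, and below 0 in none, with a median of 0.24. Krt5 and Krt14 were not called for the difference (0.28 and 0.09). Cldn3 went from 0.30 at 6 h to -0.47 at 48 h. Lama3 lost its call in 5 of the 13 fits (adjusted p up to 0.0756), and with probe sets of several possible transcripts left out its difference was 0.22. Cldn3 lost its call with the probe set of largest variance (-0.94). The summed signal of the luminal list was 16.05 to 16.08 in vehicle and 15.78 to 15.83 with 1,25D at 48 h, and 15.62 to 15.70 and 15.67 to 15.75 at 6 h, in log2 units.

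Differences of mitotic genes lay mostly a little below 0. In the list of 53 measured G2/M genes the difference was called for Nusap1 alone, a spindle protein (-0.81), and lay above 0 in 1 member only, with a median of -0.35 against 0.01 over all genes. At 48 h 4 members were called lower (Nusap1, Ndc80, Ccna2 and Cdc20, with responses of -0.53, -0.61, -0.39 and -0.44), and none of the 53 lay above 0. Over all genes, 0.951% were called lower at 48 h and 49.2% lay above 0. At 6 h none was called, and 34 of 53 lay above 0, against 45.2% of all genes. Without the 2 arrays that stand apart the median difference was -0.25 with 6 of 53 above 0. Only 2 members were then called lower at 48 h, and the median response at 6 h was -0.01, against 0.04 with all arrays. The call of the difference for Nusap1 was lost in 9 of the 13 fits (adjusted p up to 0.104). In the list of 49 G1/S and replication genes no member was called for the difference, and 4 had an unadjusted p below 0.05: Ccnd1 (0.56), Ccnd2 (0.66), Cdc6 (-0.53) and Pcna (-0.29).

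Among 24 measured heat shock proteins the difference was called for Hsph1 alone, below 0, and the list's median was -0.24 with 1 member above 0, or 6 without the 2 arrays that stand apart. Hspb1 and Cryab, small heat shock proteins, were lower at 48 h, with responses of -1.06 and -0.79, against -0.23 and -0.08 at 6 h, and their differences of -0.83 and -0.72 were not called. No member of the lists for oxidative phosphorylation (39 measured), glycolysis and hypoxia (30), cholesterol and fatty acid synthesis (31) or interferon-stimulated genes (31) was called for the difference.

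**Figure D4:**
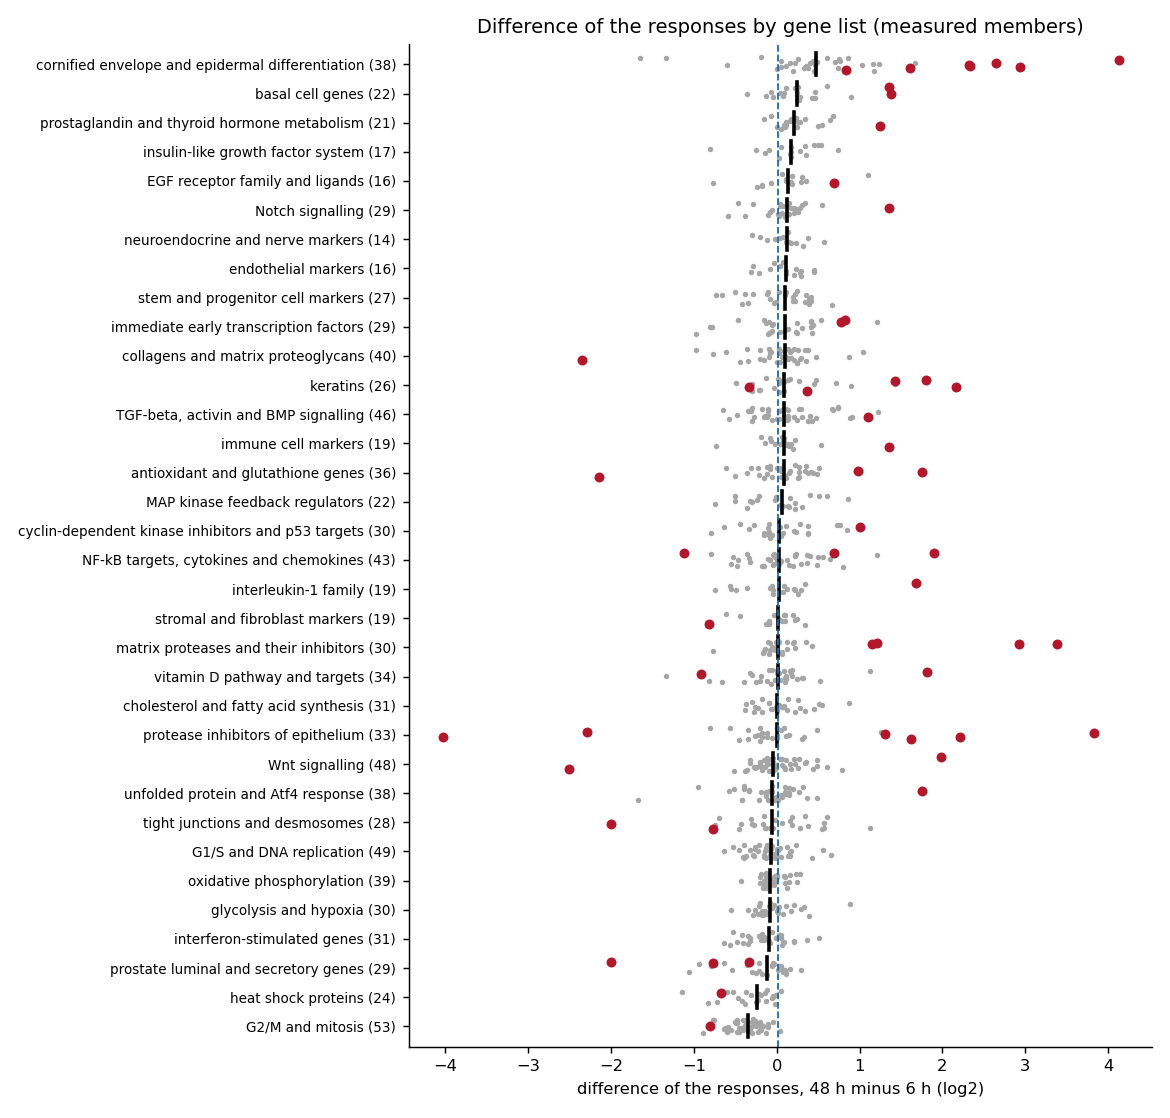
Difference of the responses (48 h minus 6 h, log2, horizontal axis) of each measured member of 34 gene lists, ordered by list median; red points are called genes, grey points are not, black bars are list medians and the dashed line is the median of all genes, 0.01. Called members above 0 gather in the cornified envelope list, whose median is 0.47, and the lists of G2/M and heat shock genes have the lowest medians, -0.35 and -0.24.

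Markers of other cell types gave 2 calls for the difference. Cd68, a lysosomal protein used as a marker of macrophages, went from -0.13 to 1.23 (difference 1.35), and S100a4, listed as stromal, from -0.04 to -0.86 (difference -0.82). Leaving out 1 array ended these calls in 7 of the 13 fits (adjusted p up to 0.0895) and 7 of the 13 fits (adjusted p up to 0.0852). Of 19 measured immune markers 3 lay above the median gene by signal, of 19 stromal markers 4, of 16 endothelial markers 2 and of 14 neuroendocrine and nerve markers 1. The summed signal of the stromal list was 12.21 to 12.43 in vehicle and 11.64 to 11.87 with 1,25D at 48 h, while that of the immune list was 12.69 to 12.73 and 12.59 to 12.63. At 6 h the immune sum was lower in both arms, at 11.51 to 11.83 in vehicle and 11.67 to 11.79 with 1,25D, and the stromal sum was 12.38 to 12.67 and 12.36 to 12.54. The neuroendocrine sum was 9.48 to 9.56 in vehicle and 9.96 to 10.12 with 1,25D at 48 h, and 9.60 to 9.74 and 9.74 to 9.86 at 6 h. The endothelial sum was 9.65 to 9.88 and 9.74 to 10.30 at 48 h, and 9.59 to 9.99 and 9.60 to 9.71 at 6 h. Their part in the results was not tested.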

How the data were processed

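RNA was made into biotin-labelled cRNA for an Affymetrix mouse array, per the labels' protocols. The deposited table holds log2 values of 45101 probe sets; the submitters' processing notes name MAS5, and how they were normalized beyond that is not given in the sources used here. The design text names a smaller chip of the same family. Values were used as given. After 64 control probe sets were removed, 45037 were fitted with 4 group means to all 13 arrays (limma 3.58.1 under R 4.3.3; eBayes with intensity trend, two-sided), with Benjamini-Hochberg adjustment. Of these, 34945 had 1 symbol in the platform annotation, 932 several and 9160 none. Each gene took the probe set with the highest mean. Detection was not assessed, so folds of dim genes may be understated. Members, gene lists and tests were chosen with earlier results of these data known. Named genes were the 12 largest differences in each direction, up to 6 leading genes of each class and direction, up to 4 members of each list by p and all called members, Cyp24a1, Vdr and Il1a; Fos, Ccna2, Cdc20 and the markers of cell identity were added after their values were seen. Of 1116 list entries 1026 were measured; the rest were not analysed here. Alternatives were an offset of 16, quantile normalization, median centring, no or robust trend, no dim probe sets (lowest 40%), other probe set choices, array weights, a replicate block, adjusted p under 0.01, fold change of at least 1.5 and leaving out arrays. The fit was tested on simulated data of 18193 genes, with 3 false calls. The simulated noise was independent between arrays. In the real data, deviations of vehicle 6 h replicate 1 and 1,25D 48 h replicate 4 had a correlation of 0.76. The simulation therefore gives no rate of false calls under such shared deviations. Promoter windows came from RefSeq tables (GRCm38.p6). Python 3.11.15, pandas 2.3.3 and matplotlib 3.10.9 were used for tables and figures.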

Additional observations from a re-analysis of the deposited data

Results flagged for a closer look

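For 72 named genes the difference was called, and the values below are these differences on the log2 scale. A called difference was itself a ground for naming a gene, so the number 72 is not a result. Over all genes 115 (0.632%) were called, and 61 of the 115 stayed called in all 13 fits that leave out 1 array. Among late-only rises, genes of cornified epithelium, keratins and protease inhibitors gave Sprr2f (4.13), Stfa2l1 (3.83), Sprr2i (2.93), Cdsn (2.65), Sprr1b (2.33), Sprr2d (2.33), Serpinb2 (2.21), Krt16 (1.80), Stfa3 (1.62), Sprr1a (1.61), Krt6b (1.42), S100a8 (0.83) and Krt6a (0.37). Secreted and membrane proteases gave Klk1b1 (3.76), Mmp13 (3.38), Egfbp2 (3.05), Mmp3 (2.92), Klk1b11 (2.67), Tmprss11e (2.58) and Mmp10 (1.22). Other late-only rises were Teddm3 (2.91), Tmigd1 (2.67), Wif1 (1.99), Abcc4 (1.81), Slc7a11 (1.75), Lama3 (1.38), Cd68 (1.35), Gsta4 (0.99), Ereg (0.69) and Saa3 (0.69).

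Late-only falls gave Spink12 (-4.03), Bbox1 (-2.53), Col11a1 (-2.35), Plb1 (-2.33), Wfdc3 (-2.28), Acod1 (-2.01), Glycam1 (-1.95), Synpo (-1.92), Lif (-1.12), Fbp1 (-0.92), S100a4 (-0.82), Nusap1 (-0.81), Cldn3 (-0.77) and Krt18 (-0.34). Transient rises, which appear here as negative values, gave Apcdd1 (-2.51), Shpk (-2.14), Cldn4 (-2.0), Ccl6 (-1.92), Ccng2 (-1.91), Pdgfb (-1.60), Dexi (-1.42), Adgra1 (-1.25) and Hsph1 (-0.67). Transient falls gave Il6 (1.90), Slc7a2 (1.38), Jag1 (1.36), Timp3 (1.15), Fst (1.11), Rdh10 (0.82) and Myc (0.82). Sustained responses that changed in size gave Krt4 (2.16), F13a1 (2.00), Il33 (1.68), Csta1 (1.31), Dio2 (1.24), Ch25h (1.16), Jam2 (1.14), Ccn2 (0.78) and Vstm5 (-1.57). The remaining values were Plk2 (1.01), Gabrp (-1.32) and Crem (-1.75).

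In 11 named genes 1 array of 1,25D at 48 h lay far from the other 3 of its group, by Dixon's test. Replicate 4 was the outlying array in 6: Col11a1 at 6.61, Serpinb2 at 7.01, Nusap1 at 8.88, Dnaja1 at 11.72, Tek at 4.28 and Scg2 at 4.89. Replicate 2 was it in 4: Cldn4 at 10.94, Tlr2 at 9.56, Bmp4 at 10.64 and Ptgs2 at 12.14. Replicate 1 was it in Atp5b, at 13.27. The 11 are 6.55% of the 168 named genes, and chance gives about 1 in 20.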

How the results depend on the processing

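The number of arrays limits what could be called: of 50 simulated late changes of log2 1 in the difference, 20 were recovered, and of 50 of log2 2, 42, so smaller changes went largely unseen and missing calls say little. Probe sets were not filtered by detection, and the cause of none of the shifts below was tested. With array quality weights 1043 genes were called at 48 h, 262 for the difference, 115 sustained, 47 transient and 178 late-only. At an adjusted p under 0.01 there were 243 at 48 h, 55 for the difference, 12 transient and 38 late-only. Without the 2 arrays that stand apart 248 genes were called at 6 h (140 higher, 108 lower, against 125 and 30), 199 for the difference (130 above 0, 69 below), 37 were transient (19 up, 18 down) and 133 late-only; without vehicle 48 h replicate 2 as well, 27 were transient and 98 late-only. Leaving out 1 array gave 104 to 185 genes at 6 h, 260 to 500 at 48 h, 66 to 130 for the difference, 43 to 69 sustained, 13 to 26 transient and 46 to 93 late-only; the lowest were without vehicle 48 h replicate 2 at 48 h (260) and without 1,25D 6 h replicate 1 for the difference (66) and the transient class (13). Without vehicle 48 h replicates 1 or 3, 271 and 275 were called at 48 h, and without replicate 2, 75 for the difference. Late-only genes numbered 46, 52 and 52 without 1,25D 6 h replicates 1, 2 or 3, and 50 and 46 without vehicle 48 h replicates 1 or 2.

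Same-numbered arrays did not deviate together, with correlations of -0.60 to 0.47, so the numbers were not taken to pair them. With the replicate number as a block, in which 1,25D 48 h replicate 4 drops out, 156 genes were called at 6 h, 373 at 48 h and 103 for the difference (66 above 0, 37 below). With probe sets of several possible transcripts left out, Cited4 at 6 h (0.0240) and Cryab at 48 h (0.0469) turned direction, each then read by another probe set. Other probe sets of Jam2 (0.08 to 0.94), Crem (-0.88 to 0.20) and Nusap1 (-0.21) were not called for the difference. For other genes, such as Ccng2, Col11a1, Krt4 and Rdh10, another probe set was called in the same direction. Median centring ended the call of the difference for Bbox1, Dio2, Csta1, Gabrp, Adgra1, Myc, Ereg, Lif, S100a8, Krt6a and Nusap1. Of 14010 further values of named genes, 13288 kept direction and side of the threshold, 548 lost their call, 172 gained one and 2 turned.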

Other observations

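Several genes of the lists lay just outside the threshold of the difference, and their responses crossed 0 between the times. Hbegf, a ligand of the EGF receptor, responded by -0.51 at 6 h and 0.60 at 48 h (difference 1.10 (SE 0.22, adjusted p = 0.0564)). Id1, a target of BMP signalling, responded by -0.53 and 0.69 (difference 1.22 (SE 0.25, adjusted p = 0.0656)), and Dusp6, a phosphatase that limits ERK signalling, by -0.40 and 0.45 (difference 0.86 (SE 0.18, adjusted p = 0.0724)). None of their 6 responses was called. Csf3, a cytokine, and Krt17, a keratin of activated epithelium, had differences of 0.80 (adjusted p = 0.051) and 0.89 (adjusted p = 0.0564). Just inside it lay Krt6a (adjusted p = 0.0458), S100a8 (adjusted p = 0.0458) and Ereg (adjusted p = 0.0453).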
